A study of Mus musculus with 20 samples.

Results

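The genes described here were 10 genes of the sebaceous gland, the oil gland of the hair follicle, chosen by name: Scd1, Scd3, Elovl3, Awat1, Awat2, Dgat2l6, Krt79, Fa2h, Mc5r and Far2. They were 10 of 35579 genes measured, and all 10 passed the filter on low counts that left 20026 genes for testing in skin. RNA was sequenced from skin and muscle of wild-type (WT) C57BL/6J mice whose left hindlimb had received 35 Gy of electrons from an ElectronFlash linac 70 days earlier. Delivery was by FLASH, an ultra-high dose rate (4 libraries per tissue), or at a conventional rate, CONV (3 libraries per tissue), and sham mice were not irradiated (3 libraries per tissue). The design asked what each modality had left in the tissue, and the gland genes were read for that question because sebaceous glands are known to be sensitive to radiation. The skin libraries were labelled batch 1 and the muscle libraries batch 2, so that tissue and batch cannot be told apart. The labels gave no age and did not state that the libraries of a group came from separate animals. The p-values therefore set group differences against the spread between these libraries, which may not stand for that between animals.

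The 10 skin libraries held 24396463 to 33250762 estimated counts each, with a biological coefficient of variation of 0.428. File names and records disagreed for 2 of them: the file of sham replicate 3 carried the name of a FLASH library, and that of FLASH replicate 1 carried the name of a sham library. Groups are given by record, and with the files grouped by library name where that changed the picture. CONV was the same under both. Whole skin was sampled, and neighbouring tissue entered unevenly. FLASH replicate 2 and sham replicate 1 were rich in fast skeletal muscle RNA (34481 and 34564 CPM, the counts scaled to library size, summed over 15 genes, against a median of 2803 CPM over the 10 skin libraries). FLASH replicate 1 and sham replicate 1 were almost without hair shaft RNA and had the highest levels of adipocyte genes. In such bulk samples, fewer gland cells and less RNA per cell cannot be told apart.

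Sebaceous gland cells fill with lipid, burst and release sebum, a mixture in mouse of wax esters, triglycerides, sterol esters and diester waxes. Fatty acids are built, lengthened by elongases, desaturated or hydroxylated, and in part reduced to fatty alcohols, which acyltransferases join to further fatty acids to give wax esters. Scd1 and Scd3 encode stearoyl-CoA desaturases, Elovl3 an elongase of very long chains, Fa2h a fatty acid hydroxylase and Far2 a reductase that makes fatty alcohols. Awat1 and Awat2 encode wax alcohol acyltransferases, and Dgat2l6 is a further member of the same enzyme family. Krt79 encodes a keratin of the duct and upper follicle in mouse, and Mc5r a melanocortin receptor that mouse sebaceous glands need for normal sebum output.

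The 3 acyltransferase genes lay side by side on the X chromosome. In the GRCm38 annotation, Awat2 (ENSMUSG00000031220) lay at chrX:100402221-100442717 on the minus strand. Dgat2l6 (ENSMUSG00000067597) followed at chrX:100524838-100546144 on the plus strand, 82.1 kb away, and Awat1 (ENSMUSG00000015665) at chrX:100572251-100578205 on the plus strand, 26.1 kb further. Their promoters are shown because these neighbours, and the 2 start sites of Awat2, differed in how much their RNA varied between libraries. RefSeq promoters of GRCm38.p6 matched 6 of the 10 genes, with 7 promoters. Each sequence holds 300 bases, 250 before the start in lower case and the first 50 transcribed bases in capitals. The distal Awat2 promoter (chrX:100442668-100442967, minus strand), the proximal Awat2 promoter (chrX:100412538-100412837, minus strand), the Dgat2l6 promoter (chrX:100524588-100524887, plus strand) and the Awat1 promoter (chrX:100571997-100572296, plus strand) read, 5′ to 3′:
Awat2 distal start: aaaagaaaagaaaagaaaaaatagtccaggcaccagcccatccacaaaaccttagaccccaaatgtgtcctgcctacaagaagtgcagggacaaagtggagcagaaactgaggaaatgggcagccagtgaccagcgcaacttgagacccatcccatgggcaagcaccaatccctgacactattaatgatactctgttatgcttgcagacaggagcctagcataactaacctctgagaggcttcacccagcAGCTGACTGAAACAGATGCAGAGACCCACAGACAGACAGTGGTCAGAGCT
Awat2 proximal start: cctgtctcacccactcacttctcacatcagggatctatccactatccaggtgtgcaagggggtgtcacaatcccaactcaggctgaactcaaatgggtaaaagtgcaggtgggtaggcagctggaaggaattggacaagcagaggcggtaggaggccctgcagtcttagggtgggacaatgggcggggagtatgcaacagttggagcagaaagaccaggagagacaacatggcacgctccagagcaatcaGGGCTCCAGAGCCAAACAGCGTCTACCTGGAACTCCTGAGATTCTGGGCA
Dgat2l6: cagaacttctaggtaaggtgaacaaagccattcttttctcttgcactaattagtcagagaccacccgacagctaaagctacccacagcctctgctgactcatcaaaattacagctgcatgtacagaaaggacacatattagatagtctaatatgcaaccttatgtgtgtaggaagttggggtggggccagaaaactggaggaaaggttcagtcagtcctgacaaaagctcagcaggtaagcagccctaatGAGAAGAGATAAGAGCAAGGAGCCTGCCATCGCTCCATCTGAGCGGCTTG
Awat1: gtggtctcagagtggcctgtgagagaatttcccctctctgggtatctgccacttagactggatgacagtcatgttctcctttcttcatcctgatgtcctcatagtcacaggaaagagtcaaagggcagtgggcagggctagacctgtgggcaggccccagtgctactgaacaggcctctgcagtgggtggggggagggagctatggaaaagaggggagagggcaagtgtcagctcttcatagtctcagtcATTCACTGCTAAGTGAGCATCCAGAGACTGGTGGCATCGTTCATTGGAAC
Their GC content was 49% (Awat2 distal), 55% (Awat2 proximal), 46.7% (Dgat2l6) and 53.7% (Awat1). Searched on both strands, AGGTCA, the core letters of nuclear receptor sites, was in 0 of the 7 promoters, against 16.3% of all 32851 promoters in the table. A pair of AGGTCA 1 base apart, the letters of PPAR sites, was also in 0 of 7, against 0.0396% of all. AGAACA, the core letters of androgen and glucocorticoid receptor sites, was found in the Awat1 promoter alone, on the opposite strand with its first base 179 bases before the start, against 19.0% of all promoters. TATAAA was in 0 of 7, against 13.6% of all. These matches describe letters in these windows and say nothing of binding.

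Compared per transcript length, the genes differed widely in level. Scd1 averaged 1442 ± 965 TPM (a length-scaled level; SD over the 10 skin libraries), which ranked 36 among the 20026 genes tested. Krt79 followed with 361 ± 127 TPM, Fa2h with 103 ± 67.5 TPM and Far2 with 76.5 ± 47.2 TPM. Below them stood Elovl3 at 38.0 ± 31.4 TPM and Scd3 at 36.7 ± 22.6 TPM. The acyltransferases were lower still, with Awat1 at 19.4 ± 16.5 TPM, Awat2 at 14.8 ± 2.95 TPM and Dgat2l6 at 4.24 ± 3.05 TPM, and Mc5r stood between Awat2 and Dgat2l6 at 8.74 ± 3.42 TPM. In this order the gaps between Scd1 and Krt79, Krt79 and Fa2h, Awat2 and Mc5r, and Mc5r and Dgat2l6 exceeded the SD of either gene. The other neighbours, from Fa2h down to Awat2, differed by less than the larger of their SDs. The genes also differed in spread: the highest library had 15.6 times the TPM of the lowest for Elovl3, 13.3 times for Dgat2l6, 10.3 times for Awat1 and 10.0 times for Scd3, but 2.00 times for Awat2.

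In muscle, which has no sebaceous glands, the 10 genes were near the bottom of the scale except Scd1, a desaturase that fat cells also express. Scd1 had a median of 49.4 TPM over the 10 muscle libraries (5.06 to 92.6 TPM). Mc5r, known in mouse from other exocrine glands and reported in skeletal muscle as well, had a median of 1.15 TPM there (0.691 to 1.93 TPM). The other 8 genes had medians under that of Mc5r, the highest being 0.834 TPM for Awat2. Awat1 had 0 of 114261171 counts in the 10 muscle libraries together, which allows up to 0.0263 CPM. The lowest skin library stood above the highest muscle library for each of the 10 genes.

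None of the 10 genes passed the test in any comparison of the skin groups. Values are CPM scaled by TMM (trimmed mean of M-values), and a gene was called at an adjusted p under 0.05 in edgeR's quasi-likelihood test, adjusted over the 20026 genes. In CONV over sham 0 of 10 were called, with a background of 0% of all genes, and Scd3 alone had an unadjusted p under 0.05, against 20.1% of all genes. For FLASH over sham the count was 0 of 10, background 0%, with Fa2h at an unadjusted p under 0.05, against 0.659% of all genes. FLASH over CONV likewise gave 0 of 10, background 0%, and 0 at an unadjusted p under 0.05, against 12.7% of all genes. CONV over the other 7 skin libraries gave 0 of 10 where 1.65% of all genes were called (1.58% higher, 0.0699% lower), and 2 genes, Scd3 and Awat2, had an unadjusted p under 0.05, against 23.4% of all genes. DESeq2 also called 0 of the 10 in each comparison, while it called 8.14% of all genes in CONV over sham, 0.025% in FLASH over sham, 2.28% in FLASH over CONV and 10.4% in CONV over the other 7. The comparisons share groups, so their values are not independent. A p above the threshold does not show that the groups were alike.

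The fitted changes of the 10 genes pointed both ways. In CONV over sham, 6 fold changes were above 0 and 4 below, with a median log2 fold change of 0.66 against 0.01 over all genes tested. In FLASH over sham, 8 were above 0 and 2 below, with a median of 0.65 against 0.00 over all genes, of which 50.4% were above 0. That count and median depended on single libraries: without FLASH replicate 4 they were 6 above, 4 below and 0.03, without sham replicate 1 they were 10 above, 0 below and 0.82, and without sham replicate 3 they were 7 above, 3 below and 0.38. Leaving out both libraries rich in muscle RNA gave 10 above and 0 below with a median of 1.00, and grouping the files by library name 6 above and 4 below with 0.16. FLASH over CONV had 5 on each side with a median of 0.02, against -0.01 over all genes. That median was -0.48 without FLASH replicate 4 and 0.28 without FLASH replicate 2. CONV over the other 7 had 6 above and 4 below, with a median of 0.25 against 0.00 over all genes. That median was 0.05 without CONV replicate 3 and 0.57 without FLASH replicate 4. The genes below 0 were Scd1, Scd3, Awat2 and Mc5r in CONV over sham, and Scd1 and Scd3 in FLASH over sham. These comparisons share the sham libraries. Elovl3, Awat1, Dgat2l6, Fa2h and Far2 also moved together from library to library, so the counts of genes above 0 are not of independent genes. By range, 3 of the 10 genes stood higher in every CONV library than in every sham library (Elovl3, Awat1 and Fa2h), beside 13.6% of all genes, and 0 stood lower, beside 14.3%. FLASH and sham overlapped for all 10 genes, where 0.829% of all genes stood wholly higher and 0.739% wholly lower in FLASH. FLASH and CONV overlapped for all 10 too, where 3.6% of genes stood wholly higher and 4.73% wholly lower in FLASH. CONV overlapped the other 7 for all 10, beside 3.85% higher and 2.62% lower.

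**Figure D1:**
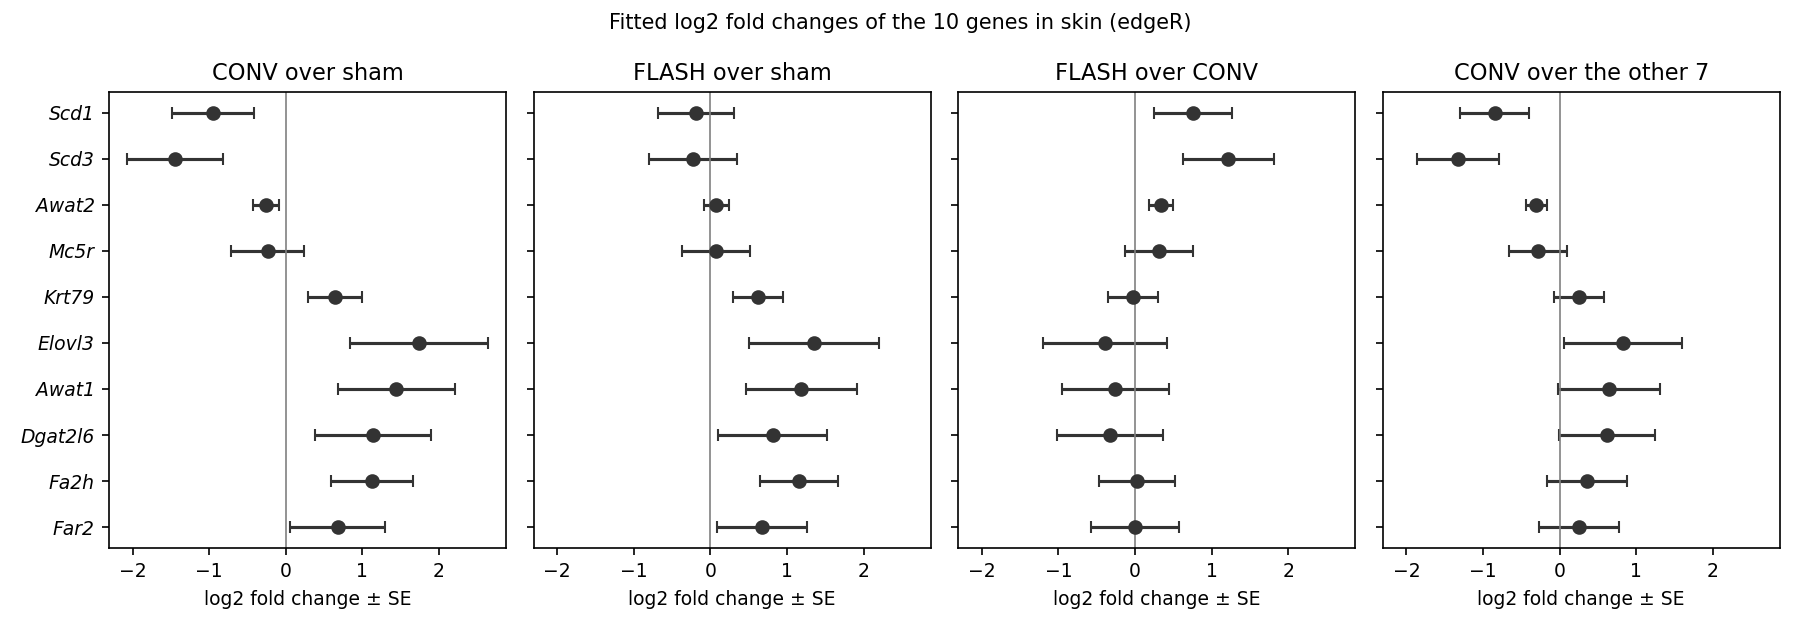
Log2 fold changes of the 10 genes (points) with standard errors (bars) in the 4 skin comparisons, from edgeR. In CONV over sham, Scd3 lies lowest at -1.45 and Elovl3 highest at 1.74, and the Awat2 bars are the shortest in each panel.

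With all libraries, the desaturase genes had the lowest fitted fold changes of the 10 in CONV over sham. Scd3 (ENSMUSG00000025202, chr19:44203269-44244016, plus strand) encodes a desaturase that in mouse skin is known from the sebaceous gland. It stood at 111, 59.7, 36.5 and 72.7 CPM in FLASH, at 54.9, 22.8 and 12.5 CPM in CONV, and at 129, 81.2 and 35.9 CPM in sham. CONV replicates 2 and 3 were the lowest of all 10 libraries, while CONV replicate 1 lay among the others. The group means were 70.0 ± 31.2 CPM in FLASH, 30.0 ± 22.1 CPM in CONV and 81.9 ± 46.4 CPM in sham (SD, n = 4, 3 and 3). The log2 fold change was -1.45 ± 0.63 (SE) in CONV over sham (adjusted p = 0.239) and -1.32 ± 0.53 in CONV over the other 7 (adjusted p = 0.176). For FLASH it was -0.23 ± 0.57 over sham (adjusted p = 1.00) and 1.22 ± 0.59 over CONV (adjusted p = 0.419).

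Scd1 (ENSMUSG00000037071, chr19:44394455-44407879, minus strand) lies 150 kb from Scd3 and encodes the main desaturase of skin and fat. It had 3520, 2003, 1402 and 4282 CPM in FLASH, 1606, 1562 and 1789 CPM in CONV, and 5646, 2616 and 1305 CPM in sham. The CONV libraries lay close together at 1652 ± 120 CPM, within the wide ranges of FLASH (2802 ± 1330 CPM) and sham (3189 ± 2226 CPM). Fitted, Scd1 had a log2 fold change of -0.95 ± 0.54 in CONV over sham (adjusted p = 0.342), -0.19 ± 0.50 in FLASH over sham (adjusted p = 1.00), and 0.76 ± 0.51 in FLASH over CONV (adjusted p = 0.529). Without sham replicate 1, which was rich in adipocyte and muscle RNA, the value of Scd1 in CONV over sham was -0.25, and without both muscle-rich libraries -0.30. Without CONV replicate 1, Mc5r at -1.03 lay below Scd1 at -0.93 in that comparison. Because the desaturase genes are close relatives, reads compatible with several of them were shared out by the authors' estimate, and the lower Scd3 values carry that uncertainty.

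Grouping the files by library name moved both desaturases. Scd3 then stood at 51.2 ± 18.1 CPM in FLASH, 30.0 ± 22.1 CPM in CONV and 107 ± 23.9 CPM in sham, and Scd1 at 2248 ± 1391 CPM in FLASH, 1652 ± 120 CPM in CONV and 3927 ± 1555 CPM in sham. The log2 fold change of Scd3 was then -1.83 ± 0.51 in CONV over sham (adjusted p = 0.0747) and -1.06 ± 0.46 in FLASH over sham (adjusted p = 0.685). That of Scd1 was -1.25 ± 0.46 in CONV over sham (adjusted p = 0.121). Under this grouping Scd3, Scd1 and Awat2 stood lower in every CONV library than in every sham library (3 of 10, beside 18.1% of all genes), and Elovl3, Awat1 and Fa2h higher (3 of 10, beside 16.6%). Scd3 was also lower in every FLASH library than in every sham library (1 of 10, beside 6.17% of all genes), and 0 of 10 were higher, beside 3.79%. FLASH and CONV still overlapped for all 10, where 3.53% of genes stood wholly higher and 4.91% wholly lower in FLASH.

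Levels of adipocyte genes moved with the desaturases across libraries. The mean log2 CPM of 12 adipocyte genes was 4.07 to 6.81 in FLASH, 4.41 to 5.36 in CONV and 4.29 to 7.29 in sham. Its correlation with Scd1 over the 10 skin libraries was r = 0.907 (permutation p = 0.00025, adjusted p = 0.00229 over 55 relations) with rho = 0.927 (permutation p = 0.00031, adjusted p = 0.00426). With Scd3 it was r = 0.769 (permutation p = 0.00913, adjusted p = 0.0359) with rho = 0.842 (permutation p = 0.00353, adjusted p = 0.0216). Without the 2 libraries farthest from the median of the adipocyte mean, r was 0.808 for Scd1 and 0.565 for Scd3. For the genes other than Scd1 and Scd3, r ran from -0.424 (Krt79) to 0.461 (Awat2), and none had an adjusted p under 0.05. Awat1 had r = 0.108 (permutation p = 0.768). Awat2, of the same enzyme family, had rho = 0.685 (permutation p = 0.0343, adjusted p = 0.111). The summed level of the 12 genes was 382 to 2365 TPM in FLASH, 485 to 816 TPM in CONV and 364 to 2631 TPM in sham, and none of them was at 0 in a whole group. In CONV over sham all 12 had fold changes below 0, with a median log2 fold change of -1.39, and 0 of 12 were called; 2 had an unadjusted p under 0.05, against 20.1% of all genes. The part of fat tissue in the Scd1 and Scd3 values was not tested, and with 3 or 4 libraries the relation could not be tested within a group.

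**Figure D2:**
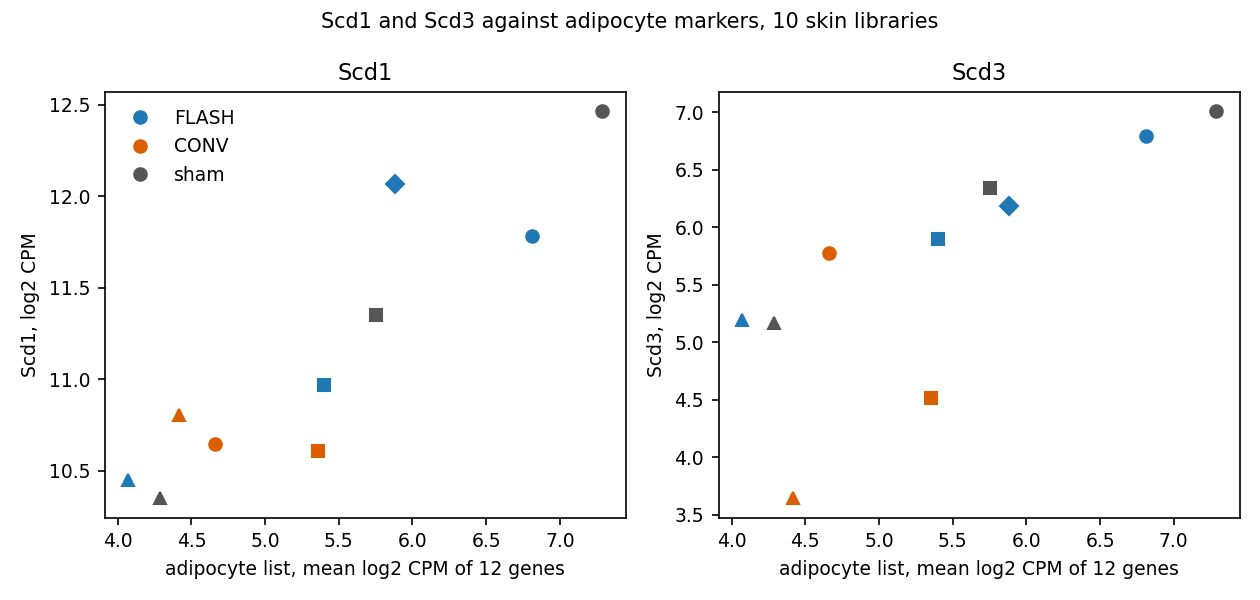
Scd1 (left) and Scd3 (right) on the y axis, in log2 CPM, against the mean log2 CPM of 12 adipocyte genes on the x axis, with a point per skin library; circle, square, triangle and diamond mark replicates 1 to 4. Both genes are highest in sham replicate 1, which also has the highest adipocyte mean at 7.29, while CONV replicates 2 and 3 lie below the other libraries of like adipocyte mean for Scd3.

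The genes that lengthen, hydroxylate and reduce fatty acids stood higher in irradiated skin than in sham by group mean, without passing the test. Elovl3 (ENSMUSG00000038754, chr19:46131897-46135694, plus strand), the elongase, had 10.4, 5.92, 40.1 and 86.0 CPM in FLASH, 52.0, 29.6 and 58.6 CPM in CONV, and 12.7, 22.5 and 6.67 CPM in sham. All CONV libraries exceeded all sham libraries, whereas FLASH replicates 1 and 2 lay within or below the sham range and replicate 4 was the highest of all. The log2 fold change was 1.74 ± 0.90 in CONV over sham (adjusted p = 0.303), 1.35 ± 0.85 in FLASH over sham (adjusted p = 1.00) and -0.39 ± 0.81 in FLASH over CONV (adjusted p = 0.855). Both FLASH values for Elovl3 rested on FLASH replicate 4: without it they were 0.43 over sham and -1.31 over CONV. With the mean level of hair shaft genes as a covariate, Elovl3 was at 1.13 in CONV over sham and 0.76 in FLASH over sham. The part of hair content in the Elovl3 values was not tested.

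Fa2h (ENSMUSG00000033579, chr8:111345135-111393824, minus strand), whose hydroxylated products belong to mouse sebum, had 89.3, 55.2, 119 and 314 CPM in FLASH, 149, 117 and 157 CPM in CONV, and 76.4, 67.3 and 50.4 CPM in sham. CONV lay above sham in every library, at 141 ± 21.2 CPM against 64.7 ± 13.2 CPM. FLASH averaged 144 ± 116 CPM, with replicate 4 far above replicates 1 to 3. Log2 fold changes were 1.13 ± 0.54 in CONV over sham (adjusted p = 0.271), 1.16 ± 0.51 in FLASH over sham (adjusted p = 1.00) and 0.03 ± 0.50 in FLASH over CONV (adjusted p = 0.982). Without FLASH replicate 4 the Fa2h value in FLASH over sham was 0.44, while that in CONV over sham was 0.97 to 1.26 with any library left out.

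Far2 (ENSMUSG00000030303, chr6:148047259-148182758, plus strand), which supplies the fatty alcohols of wax esters, had 123, 58.1, 97.2 and 323 CPM in FLASH, 172, 88.2 and 192 CPM in CONV, and 145, 87.7 and 50.3 CPM in sham. The groups overlapped, and FLASH replicate 4 was again the highest library. Far2 had a log2 fold change of 0.68 ± 0.62 in CONV over sham (adjusted p = 0.547) and 0.68 ± 0.59 in FLASH over sham (adjusted p = 1.00), and FLASH and CONV averaged 150 ± 118 and 150 ± 54.8 CPM. Without FLASH replicate 4 the FLASH over sham value was -0.021, and by library name Far2 was at 0.34 in CONV over sham and 0.16 in FLASH over sham.

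The acyltransferases split into a variable pair, Awat1 and Dgat2l6, and the steadier Awat2. Awat1 had 9.92, 4.42, 7.50 and 35.3 CPM in FLASH, 12.7, 10.3 and 28.2 CPM in CONV, and 9.54, 6.11 and 3.19 CPM in sham. Dgat2l6 had 6.30, 3.60, 4.37 and 18.6 CPM in FLASH, 8.74, 5.69 and 16.5 CPM in CONV, and 7.96, 4.59 and 1.47 CPM in sham. Both genes were highest in FLASH replicate 4 and CONV replicate 3 and lowest in sham replicate 3. Awat1 stood above sham in every CONV library, with a log2 fold change of 1.44 ± 0.77 (adjusted p = 0.314), while the groups overlapped for Dgat2l6 at 1.14 ± 0.76 (adjusted p = 0.405). In FLASH over sham the values were 1.19 ± 0.73 for Awat1 and 0.82 ± 0.71 for Dgat2l6 (both adjusted p = 1.00). Without FLASH replicate 4 these FLASH values were 0.21 for Awat1 and 0.027 for Dgat2l6, and by library name 0.57 and 0.16 in the same order. Without CONV replicate 3 the CONV over sham values were 0.87 for Awat1 and 0.63 for Dgat2l6.

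Awat2 stayed within a narrow band. It had 16.1, 13.9, 14.4 and 16.4 CPM in FLASH, 14.4, 11.3 and 10.4 CPM in CONV, and 14.6, 14.7 and 13.8 CPM in sham. CONV replicates 2 and 3 were the lowest libraries, and CONV replicate 1 lay with the rest. The group means were 15.2 ± 1.23 CPM in FLASH, 12.03 ± 2.09 CPM in CONV and 14.4 ± 0.488 CPM in sham (SD, n = 4, 3 and 3). The log2 fold change was -0.26 ± 0.17 in CONV over sham (adjusted p = 0.402), 0.34 ± 0.16 in FLASH over CONV (adjusted p = 0.409) and -0.30 ± 0.14 in CONV over the other 7 (adjusted p = 0.211).

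The narrow band of Awat2 was that of its distal transcript. Awat2-202 starts at the distal promoter shown above, spans chrX:100402226-100442717 in 8 exons and held 94.9% of the gene's counts. Awat2-201 starts at the proximal promoter, spans chrX:100402221-100412587 in 7 exons and held 5.06%. They share 1477 exon bases, with 507 bases of Awat2-202 and 142 of Awat2-201 of their own, so the authors' split between them rests on few bases. Awat2-202 had 15.7, 13.5, 13.8 and 14.3 CPM in FLASH, 13.5, 11.0 and 9.52 CPM in CONV, and 14.0, 14.3 and 13.4 CPM in sham. Awat2-201 had 0.404, 0.493, 0.555 and 2.06 CPM in FLASH, 0.893, 0.271 and 0.859 CPM in CONV, and 0.654, 0.373 and 0.391 CPM in sham. The minor proximal transcript was highest in FLASH replicate 4, the library in which Awat1 and Dgat2l6 were also highest. In muscle, the 10 libraries held 121 counts of Awat2-202 and 2.16 of Awat2-201. For Dgat2l6, 86.8% of counts were assigned to Dgat2l6-202, which the annotation lists as a retained intron, and 13.2% to the coding transcript Dgat2l6-201.

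**Figure D3:**
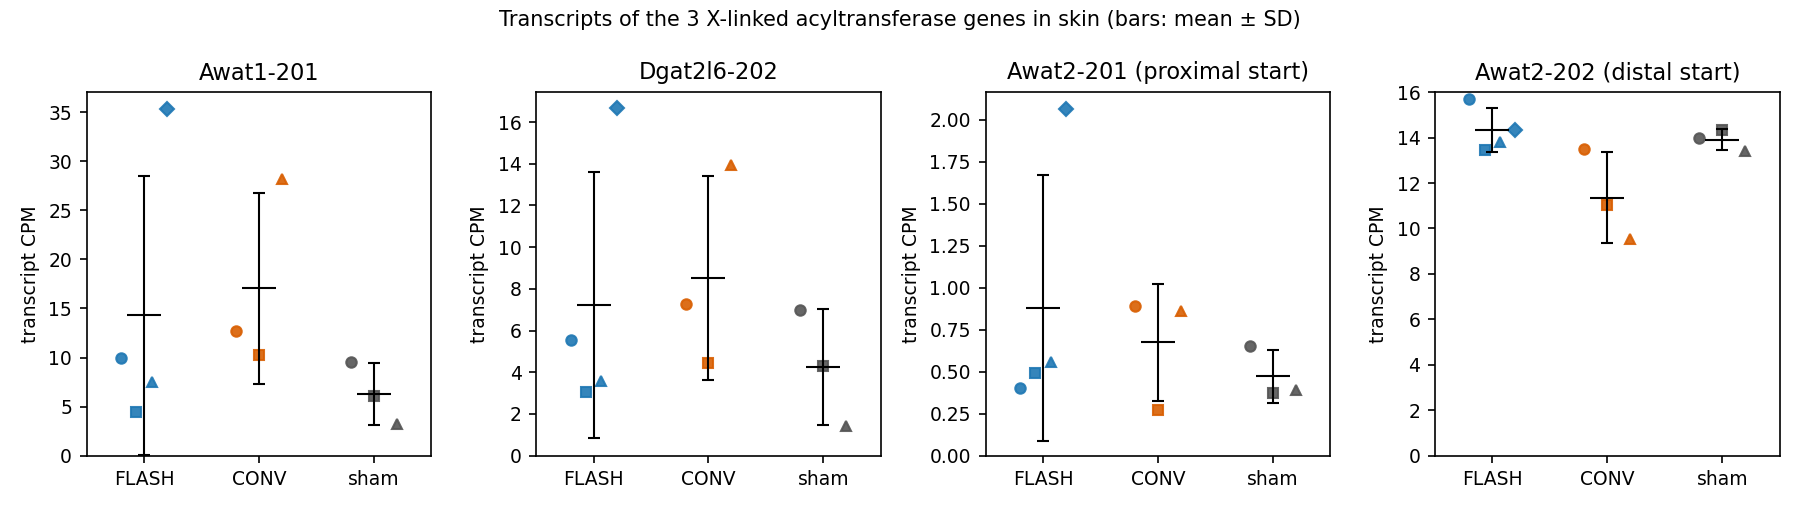
Transcript CPM (y axis) in each skin library of the FLASH, CONV and sham groups (x axis) for Awat1-201, Dgat2l6-202 and the proximal and distal Awat2 transcripts; bars give mean ± SD. Awat2-202 stays between 9.52 and 15.7 CPM, while the other transcripts peak in FLASH replicate 4.

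Krt79 (ENSMUSG00000061397, chr15:101929332-101940324, minus strand), the duct keratin, had 269, 192, 346 and 471 CPM in FLASH, 268, 405 and 299 CPM in CONV, and 154, 177 and 292 CPM in sham. Sham replicates 1 and 2 were the lowest libraries and replicate 3 lay among the irradiated ones. Its log2 fold change was 0.64 ± 0.35 in CONV over sham (adjusted p = 0.327), 0.62 ± 0.33 in FLASH over sham (adjusted p = 1.00) and -0.02 ± 0.33 in FLASH over CONV (adjusted p = 0.983). Leaving out FLASH replicate 4 put the FLASH over sham value of Krt79 at 0.37, and leaving out sham replicate 3 put it at 0.95.

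Mc5r (ENSMUSG00000007480, chromosome 18), the receptor, had 15.1, 16.1, 19.9 and 24.9 CPM in FLASH, 28.3, 8.53 and 9.19 CPM in CONV, and 22.6, 20.6 and 11.2 CPM in sham. CONV held both the highest and the lowest library of the 10. Its log2 fold changes were -0.24 ± 0.47 in CONV over sham (adjusted p = 0.786), 0.07 ± 0.44 in FLASH over sham (adjusted p = 1.00) and 0.31 ± 0.44 in FLASH over CONV (adjusted p = 0.774).

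**Figure D4:**
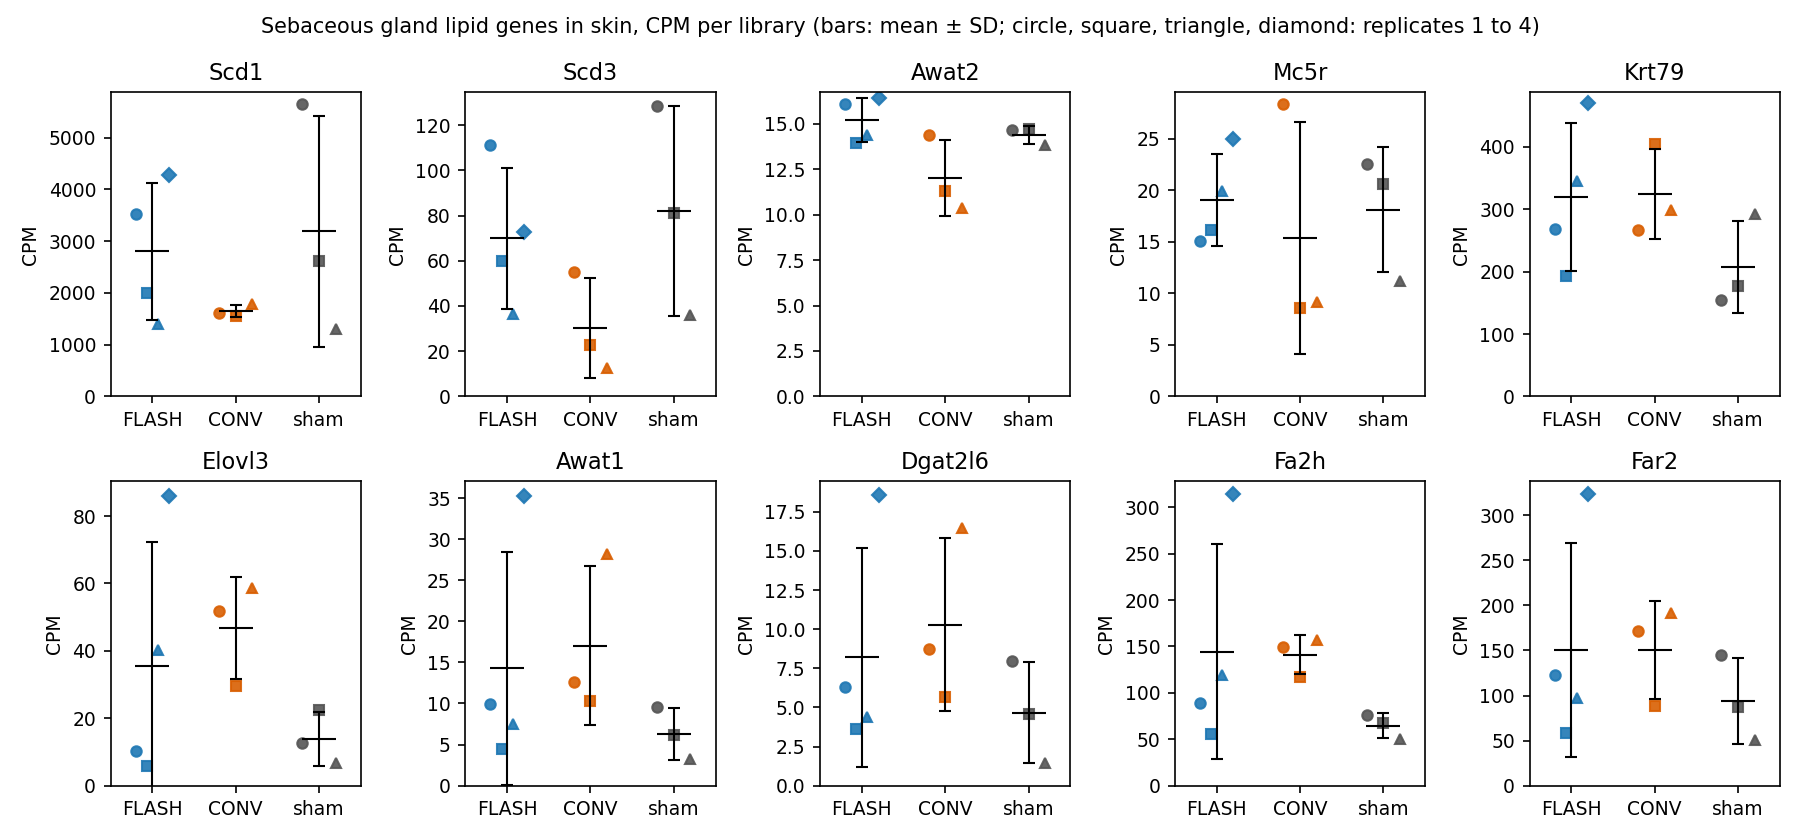
CPM of each of the 10 genes (y axes) in the FLASH, CONV and sham skin libraries (x axes), with the mean ± SD as bars, cut at 0. FLASH replicate 4 (diamond) is the highest library for Elovl3, Awat1, Dgat2l6, Fa2h, Far2, Krt79 and Awat2, and CONV replicates 2 and 3 are the lowest for Scd3, Awat2 and Mc5r.

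Elovl3, Awat1, Dgat2l6, Fa2h and Far2 moved together from library to library. Of the 45 pairs of the 10 genes, 12 had a Pearson correlation of log2 CPM with an adjusted p under 0.05, and they were the 10 pairs among these 5 genes and Awat2 with Scd3 and with Mc5r. Awat1 and Dgat2l6 had r = 0.966 over the 10 libraries (permutation p = 1e-05, the smallest the permutations can give, adjusted p = 0.00055) and rho = 0.939 (permutation p = 0.0002, adjusted p = 0.00367), and r = 0.960 without the 2 libraries farthest from the median of Awat1. Dgat2l6 and Far2 had r = 0.946 (permutation p = 0.00016, adjusted p = 0.00187) and rho = 0.964 (permutation p = 7e-05, adjusted p = 0.00367), and 0.915 without 2 libraries. Elovl3 and Fa2h had r = 0.913 (permutation p = 0.00017, adjusted p = 0.00187) and rho = 0.939 (permutation p = 0.00019, adjusted p = 0.00367), and 0.855 without 2 libraries. The other pairs of Elovl3 were the least firm of the 10. Without 2 libraries, r went from 0.787 to 0.573 with Far2, 0.763 to 0.588 with Dgat2l6 and 0.826 to 0.678 with Awat1. With Dgat2l6, rho was 0.770 (permutation p = 0.013, adjusted p = 0.051).

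Over all 10 libraries Awat2 did not follow these 5 genes, but its relation to them depended on few libraries. With Awat1, r was -0.133 (permutation p = 0.723, adjusted p = 0.847) and rho 0.152 (permutation p = 0.682, adjusted p = 0.798), and r was -0.618 without the 2 libraries farthest from the median of Awat1. With Dgat2l6, Fa2h and Far2, r over all libraries was -0.085, -0.0083 and 0.130 in that order. Without the 2 libraries farthest from the median of Awat2 those r were 0.747, 0.674 and 0.764. With Mc5r, r was 0.772 (permutation p = 0.00779, adjusted p = 0.0357) and 0.301 without those 2 libraries, so that relation rests on them. Its r with Scd3 was 0.878 (permutation p = 0.00104, adjusted p = 0.00715) and rho 0.855 (permutation p = 0.00283, adjusted p = 0.0195), and 0.561 without the 2 libraries farthest from the median of Scd3. Scd1 and Scd3 had r = 0.735 (permutation p = 0.0155, adjusted p = 0.0568) and rho = 0.806 (permutation p = 0.00743, adjusted p = 0.0316), and 0.654 without 2 libraries. Scd3 and Awat1 had r = -0.192 (permutation p = 0.597, adjusted p = 0.782). These values pool the 3 groups, and libraries share differences in fat, hair and muscle content whose part was not tested.

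Averaged as z-scores, the 10 genes were highest in FLASH replicate 4 at 1.39 and lowest in sham replicate 3 at -0.98. Of 17674 protein-coding genes, those whose log2 CPM followed this mean most closely over the 10 libraries were Serpina3j (r = 0.987), Panx3 (r = 0.973), Gm5538 (r = 0.941), Hsd3b6 (r = 0.912) and Mgll (r = 0.908). Then came Secisbp2l (0.908), Exosc9 (0.903), Ugt1a1 (0.897), Gm13178 (0.891) and Efr3a (0.891), all as r. Hsd3b6 encodes a steroid dehydrogenase and Mgll the lipase that splits monoacylglycerols. The list is a description with no test.

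**Figure D5:**
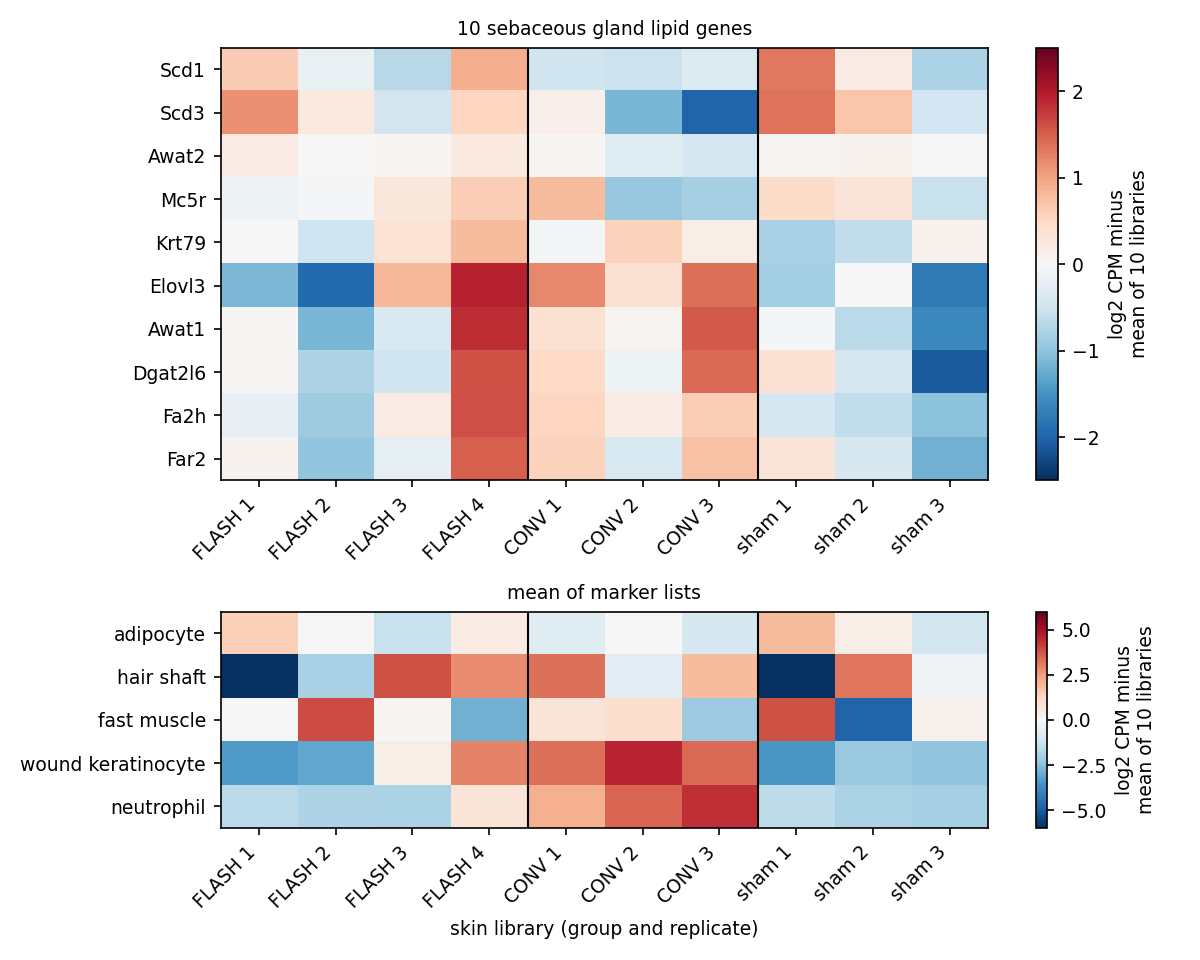
Log2 CPM of the 10 genes (upper rows) and mean log2 CPM of 5 marker lists (lower rows), each minus its mean over the 10 skin libraries (columns, by group). Elovl3, Awat1, Dgat2l6, Fa2h and Far2 are high in FLASH replicate 4 and low in sham replicate 3, and the hair shaft row is lowest in FLASH replicate 1 and sham replicate 1.

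Other genes of the gland and of lipid synthesis gave no calls either. Of 17 further sebocyte genes, 0 were called in any comparison, and in CONV over sham 11 had fold changes above 0 and 6 below, with a median log2 fold change of 0.36 and 8 at an unadjusted p under 0.05, against 20.1% of all genes. The 3 with the highest mean TPM were Fabp5, a fatty acid binding protein, Acsbg1, an acyl-CoA synthetase, and Mgst1, a glutathione transferase. Fabp5 averaged 411 ± 479 CPM in FLASH, 1318 ± 990 CPM in CONV and 140 ± 71.9 CPM in sham, with a log2 fold change of 3.24 ± 1.08 in CONV over sham (adjusted p = 0.169); wounded epidermis also expresses it. Acsbg1 was at -0.20 ± 0.34 (adjusted p = 0.757) and Mgst1 at 0.19 ± 0.39 (adjusted p = 0.80) in the same comparison. Ppard, a lipid-sensing nuclear receptor chosen here after its value was seen, came closest to the threshold, at 1.25 ± 0.27 in CONV over the other 7 (adjusted p = 0.051). It averaged 123 ± 28.1 CPM in CONV, against 58.6 ± 22.9 CPM in FLASH and 43.0 ± 8.98 CPM in sham.

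Of 21 genes of fatty acid and glyceride synthesis, 20 were tested and 0 called, with 12 above 0 and 8 below in CONV over sham and a median log2 fold change of 0.12. In that comparison Elovl4 was at 0.60 ± 0.36 (adjusted p = 0.368), Elovl1 at 0.07 ± 0.27 (adjusted p = 0.893) and Elovl6 at 0.76 ± 0.40 (adjusted p = 0.311); all are elongases. Of 17 genes of cholesterol synthesis, 0 were called, with 12 above 0 and 5 below and a median of 0.37. Among these, Hmgcs1 had -0.04 ± 0.29 (adjusted p = 0.952) and Msmo1 0.38 ± 0.28 (adjusted p = 0.456). In FLASH over CONV 15 of the 17 cholesterol genes were below 0, with a median of -0.20 and 0 called. The values of all these lists for FLASH over sham had medians of 0.20 (sebocyte), -0.04 (fatty acid) and 0.03 (cholesterol), again with 0 called.

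The same CONV libraries differed from the other 7 in inflammatory genes. In CONV over the other 7, 8 of 10 neutrophil genes and 4 of 10 macrophage genes were called higher, against 1.58% of all genes. So were 2 of 14 wound keratinocyte genes, Hbegf and Areg. Called or not, all 10 neutrophil, all 10 macrophage and all 14 wound keratinocyte genes had fold changes above 0. Their median log2 fold changes were 4.76, 1.45 and 3.01 in that order. Il1b averaged 161 ± 114 CPM in CONV, against 6.57 ± 9.73 CPM in FLASH and 2.30 ± 1.19 CPM in sham. Hbegf, an EGF receptor ligand, averaged 74.7 ± 9.96 CPM in CONV, against 10.9 ± 10.1 CPM in FLASH and 9.85 ± 4.38 CPM in sham. These calls depend on single libraries: no gene was called without the 2 libraries rich in muscle RNA, or without sham replicate 1, 2 or 3 or FLASH replicate 1, 2 or 3, and 1 gene was called without CONV replicate 3. The summed neutrophil level was 22.0 to 120 TPM in FLASH, 281 to 1280 TPM in CONV and 29.0 to 42.0 TPM in sham. Wound keratinocyte genes summed to 453 to 11659 TPM in FLASH, 9824 to 24750 TPM in CONV and 299 to 1434 TPM in sham. FLASH replicate 4, where the mean z-score of the 10 genes was highest, was the highest FLASH library for both lists. It had 120 TPM (neutrophil) and 11659 TPM (wound keratinocyte), the latter within the CONV range. FLASH replicates 1 to 3 had 22.0 to 54.2 TPM and 453 to 2890 TPM in the same order. Hair shaft genes summed to 35.7 to 15436 TPM in FLASH, 563 to 11675 TPM in CONV and 26.4 to 10854 TPM in sham. The 17 further sebocyte genes summed to 1076 to 3688 TPM in FLASH, 2133 to 5118 TPM in CONV and 1300 to 1632 TPM in sham. Fabp5 weighed most in that sum, with a mean of 1146 TPM, against 293 TPM for Acsbg1 and 192 TPM for Mgst1. The mean log2 CPM of the list, in which each gene weighs the same, was 4.44 to 5.25 in FLASH. It was 5.07 to 5.14 in CONV and 4.27 to 4.88 in sham. The part of these tissues and cells in the values of the 10 genes was not tested.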

How the data were processed

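RNA sequencing of 20 libraries (10 skin, 10 muscle) was made from total RNA with a stranded kit that depletes ribosomal RNA, per the labels' protocols. The authors deposited kallisto output per transcript (kallisto 0.5.0, mm10, per the submitters' processing notes), in estimated counts and TPM. Which annotation they used is not given in the sources used here. The estimated counts deposited by the authors were summed to genes with GENCODE M21 names and rounded; 0.873% to 1.85% of a library's estimated counts had no match and were left out. TPM deposited by the authors was summed to genes and used only to compare levels between genes. The limit given for Awat1 in muscle covers counting error only, whereas each ± is an SD between libraries or a standard error of the fit.

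Skin libraries (24396463 to 33250762 estimated counts) were tested with edgeR 4.0.16 (R 4.3.3): filterByExpr by group, TMM scaling, robust quasi-likelihood fits and Benjamini-Hochberg adjustment over 20026 genes at 0.05. The 3 groups shared a fit; CONV against the other 7 libraries had its own. Standard errors are the log2 fold change over the square root of F. Log2 CPM in list means has a prior count of 2. DESeq2 1.42.0, other scaling, no filter, each library left out, the replicate number as a block, files grouped by library name, and a hair shaft covariate were the alternatives. Pairs of replicates of a group differed by chi-square over degrees of freedom of 70.4 to 402 (12 pairs), so none was a duplicate. Correlations used log2 CPM and 100000 permutations. The edgeR step was tested on simulated data.

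The 10 genes and the lists were chosen with earlier results of these data known. All 10 are named; of other lists, up to 4 called genes and the 3 highest in mean TPM; of genes of like pattern, the 10 with the highest r. A gene that this rule names is not reported here.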

Additional observations from a re-analysis of the deposited data

Results flagged for a closer look

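In the FLASH skin group, 2 of 23 sets of 4 values (the 10 genes, the 2 transcripts of Awat2 and 11 gene lists) held a library that stood apart by Dixon's criterion at 95%, and chance marks about 1 in 20. For Awat2-201, the transcript from the proximal start, the gap over the range was 0.909: FLASH replicate 4 had 2.06 CPM, against 0.404 to 0.555 CPM in FLASH replicates 1 to 3. For the summed TPM of 15 fast muscle genes it was 0.923, with 36088 TPM in FLASH replicate 2. None of the 10 genes summed over transcripts met the criterion (0 of 10), and transcripts of genes other than Awat2 were not put to it.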

How the results depend on the processing

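The count of the 10 genes called stayed at 0 in all 4 comparisons under every alternative, except 1 with the replicate number as a block in CONV over the other 7, where Scd3 had -1.42 ± 0.16 (adjusted p = 0.00847). The replicate numbers did not pair the libraries (same-number correlations of deviations -0.711 to 0.517 over 9 pairs, other pairs -0.687 to 0.667 over 24), and the block gave 1292 genes called in CONV over the other 7, 15 in CONV over sham, 1 in FLASH over CONV and 0 in FLASH over sham.

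Counts over all genes depended on the setting. CONV over the other 7 gave 331 genes, and 2078 with DESeq2, 0 with the hair shaft covariate, 0 leaving out the libraries whose names disagree, 0 without those rich in muscle RNA, and 0 to 1454 without single libraries (1319 without CONV replicate 1, 148 without CONV replicate 2, 1 without CONV replicate 3, 1454 without FLASH replicate 4, 0 without each other library). CONV over sham gave 0, and 1630 with DESeq2 and 0 to 406 without single libraries (406 without CONV replicate 1, 89 without FLASH replicate 4). FLASH over CONV gave 0, and 457 with DESeq2 and 0 to 117 (117 without CONV replicate 1). FLASH over sham gave 0, and 5 with DESeq2.

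Of 720 fold changes of the 10 genes over 18 settings, 673 kept direction and side of the threshold, 46 changed sign and 1 passed the threshold. Part of these values could hardly move. Grouping by library name left CONV over the other 7 as it was. Leaving out a library of a group outside the comparison changed little: Scd1 in CONV over sham was -0.95 without each FLASH library. The count of 673 is therefore no measure of how firm the fold changes are. Sign changes touched 13 of 40 fold changes, the largest of which was 0.68. In FLASH over sham these were Far2 with the block (-0.042), Awat2 (-0.049) and Mc5r (-0.11) by library name, Mc5r without the libraries of disagreeing name (-0.088) and with the hair covariate (-0.0087), and Scd1 (0.62) and Scd3 (0.30) without the muscle-rich libraries. In FLASH over CONV they were Far2 with RLE factors (0.0057), without the filter (0.0060), with DESeq2 (0.0057), with the hair covariate (0.035), and leaving out the libraries whose names disagree (0.086) or those rich in muscle (0.30). Also in FLASH over CONV they were Fa2h with the block (-0.71) and by library name (-0.069), Krt79 by library name (0.0056), without disagreeing names (0.055), without muscle-rich libraries (0.21) and with the hair covariate (0.024), and, without muscle-rich libraries, Elovl3 (0.0093) and Awat1 (0.082). Without single libraries, FLASH over CONV ranged from -1.23 to 0.33 for Awat1, -1.12 to 0.20 for Dgat2l6, -0.68 to 0.30 for Fa2h, -0.70 to 0.27 for Far2 and -0.27 to 0.17 for Krt79. FLASH over sham ranged from -0.021 to 1.12 for Far2, -0.18 to 0.26 for Mc5r, -0.56 to 0.51 for Scd1 and -0.58 to 0.26 for Scd3, and Mc5r from -1.07 to 0.0083 in CONV over the other 7 and -1.03 to 0.049 in CONV over sham. Scd3 in CONV over sham ranged from -2.22 to -0.96 (adjusted p 0.103 to 0.513) without single libraries and from -1.83 to -1.01 under the other settings. The cause of these changes was not tested. With 3 or 4 libraries a group and a coefficient of variation of 0.428, changes of the size seen here may go uncalled.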

Other observations

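These values were chosen after they were seen and are given as description. The TPM ratio of Scd3 to Fa2h was 0.803, 0.692, 0.224 and 0.159 in FLASH, 0.247, 0.137 and 0.054 in CONV, and 1.15, 0.813 and 0.489 in sham. Every CONV library lay below every sham library, as did FLASH replicates 3 and 4. In CONV over sham Scd3 was below 0 and Fa2h stood higher in every CONV library. The separation of the ratio thus follows in part from the choice of these genes, and other gene pairs were not counted. Both coding transcripts of Far2 were measured. Far2-201, with 88.0% of the counts, had 106, 47.6, 79.2 and 303 CPM in FLASH, 151, 79.6 and 169 CPM in CONV, and 127, 72.5 and 39.4 CPM in sham. Far2-202, with 11.4%, had 15.8, 9.74, 17.1 and 18.9 CPM in FLASH, 19.7, 8.42 and 21.9 CPM in CONV, and 16.9, 14.4 and 9.95 CPM in sham. FLASH replicate 4 was the highest library for the major transcript and lay below CONV replicates 1 and 3 for the minor one.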
